A study of Mus musculus with 2 samples.

Results

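Axon guidance ligands and receptors were examined in neural stem and progenitor cells (NSPCs) overexpressing the microRNA miR-153, set against cells that carried the control for overexpression. The genes were chosen by name, from all probes that were not controls on the array. They were the semaphorins, plexins, neuropilins, ephrins, Eph receptors, Slits, Robo receptors, netrins, Dcc and the Unc5 genes, which came to 71 of 36493 gene names and to 93 of 55674 probes. Of the 71, Unc50 and Unc5cl met the name rule without being guidance receptors: Unc50 encodes a Golgi protein and Unc5cl a death-domain protein related to the Unc5 family. The cells of both groups had been derived from embryonic stem cells of the mouse by way of embryoid bodies and were grown as tertiary neurospheres, which are floating balls of NSPCs, at passage 2. Both were collected 18 days after the embryoid bodies, and total RNA of each group was labelled with cyanine-3 and hybridised to 1 array. The labels name neither the vector, the mouse strain nor the arm of miR-153 that was expressed, and the control group shared the culture and the overexpression step but not miR-153. With 1 array per group no spread between cultures could be measured, no test was possible, and every difference below describes these 2 arrays. The cells of the array with miR-153 overexpression are called miR-153 cells below, and those of the other array control cells.

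Growing axons and migrating neural cells read guidance cues through receptors on their surface. Semaphorins signal through plexins, with neuropilins as co-receptors for the secreted class 3 proteins; Slits signal through Robo receptors and are mostly repulsive; netrins attract through Dcc and repel through Unc5 receptors. Ephrins and Eph receptors are both bound to membranes, so they signal at contacts between cells and in both directions. In the developing brain these families also act on progenitors, on migrating neuroblasts and on blood vessels.

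MicroRNAs recognise messenger RNAs mainly through the seed, bases 2 to 8 of the mature strand. Both strands of miR-153 are shown because the labels do not say which was active, with the seed in capitals. They are the RefSeq entries of mouse build GRCm38.p6 on the plus strand, at chr12:117250860-117250881 for the 3p arm and chr12:117250821-117250843 for the 5p arm. The seeds of the arms differ, so the arms have separate sets of possible targets.
mmu-miR-153-3p: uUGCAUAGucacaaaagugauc
mmu-miR-153-5p: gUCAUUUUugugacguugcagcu

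Promoter windows from RefSeq (GRCm38.p6), reaching from 250 bases before to 50 bases after a gene's start, were available for 61 of the 71 genes, as 77 windows of 300 bases. They were searched on both strands for the palindrome of the nuclear factor I family, TGGC and GCCA with any 5 bases between them, which was present in 265 of all 32851 windows (0.807%). Among the guidance genes it was present in 2 of 77 windows (2.60%), those of the Eph receptor genes Epha8 and Epha3. These windows are shown because both genes were at least 2-fold higher in miR-153 cells, with the palindrome in capitals. The Epha8 window is chr4:136956767-136957066 and the Epha3 window is chr16:63864126-63864425, both on the minus strand and written 5′ to 3′.
Epha8: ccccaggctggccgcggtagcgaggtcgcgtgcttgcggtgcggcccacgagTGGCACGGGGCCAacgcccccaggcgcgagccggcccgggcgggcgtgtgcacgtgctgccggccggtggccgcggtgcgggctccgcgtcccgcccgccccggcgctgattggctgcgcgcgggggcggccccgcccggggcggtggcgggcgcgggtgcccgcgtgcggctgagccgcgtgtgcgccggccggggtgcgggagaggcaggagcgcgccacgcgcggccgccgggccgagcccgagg
Epha3: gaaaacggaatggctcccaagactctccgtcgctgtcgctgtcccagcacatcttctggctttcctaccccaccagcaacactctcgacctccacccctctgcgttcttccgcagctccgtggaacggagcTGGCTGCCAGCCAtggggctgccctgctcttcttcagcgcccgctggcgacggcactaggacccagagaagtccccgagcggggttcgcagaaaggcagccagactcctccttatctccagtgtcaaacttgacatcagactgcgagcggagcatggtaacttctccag

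The same windows were searched for ACGTG, the core of the motif bound by hypoxia-inducible factors, and for CAGCTG, an E-box bound by neurogenic transcription factors. ACGTG was in 13 of the 77 guidance windows (16.9%), against 19.6% of all windows, and CAGCTG in 12 (15.6%), against 16.3%. In the 20 windows of genes at least 2-fold higher in miR-153 cells, ACGTG was in 4, CAGCTG in 2 and the nuclear factor I palindrome in 2. None of the 3 motifs was in the 4 windows of genes at least 2-fold lower. The Epha8 window held ACGTG at 1 place, which matched on both strands and lay away from the letters in capitals. Such matches describe letters in a window and are not evidence of binding.

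On both arrays together, 63 of the 71 guidance genes were well above background, and more of them were higher than lower in miR-153 cells. At least 2-fold higher were 21 of the 63 (33.3%), where 9.22% of all genes with a measurement on both arrays were that much higher. At least 2-fold lower were 3 of the 63 (4.76%), where 11.1% of all genes were that much lower. The remaining 39 lay between. The median log2 difference of the guidance genes was 0.59, against -0.11 over all 20477 genes measured on both arrays; among the 13103 of these that matched a RefSeq gene the median was 0.01, with 11.1% higher and 9.85% lower. Differences throughout are log2 values of miR-153 cells less those of control cells, after each array was set to its own 75th percentile, so that a log2 difference of 1 is 2-fold; signals are given before that step. The 75th percentiles were 549 intensity units in miR-153 cells and 435 in control cells, so a gene with no scaled difference had the larger raw signal in miR-153 cells.

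**Figure D1:**
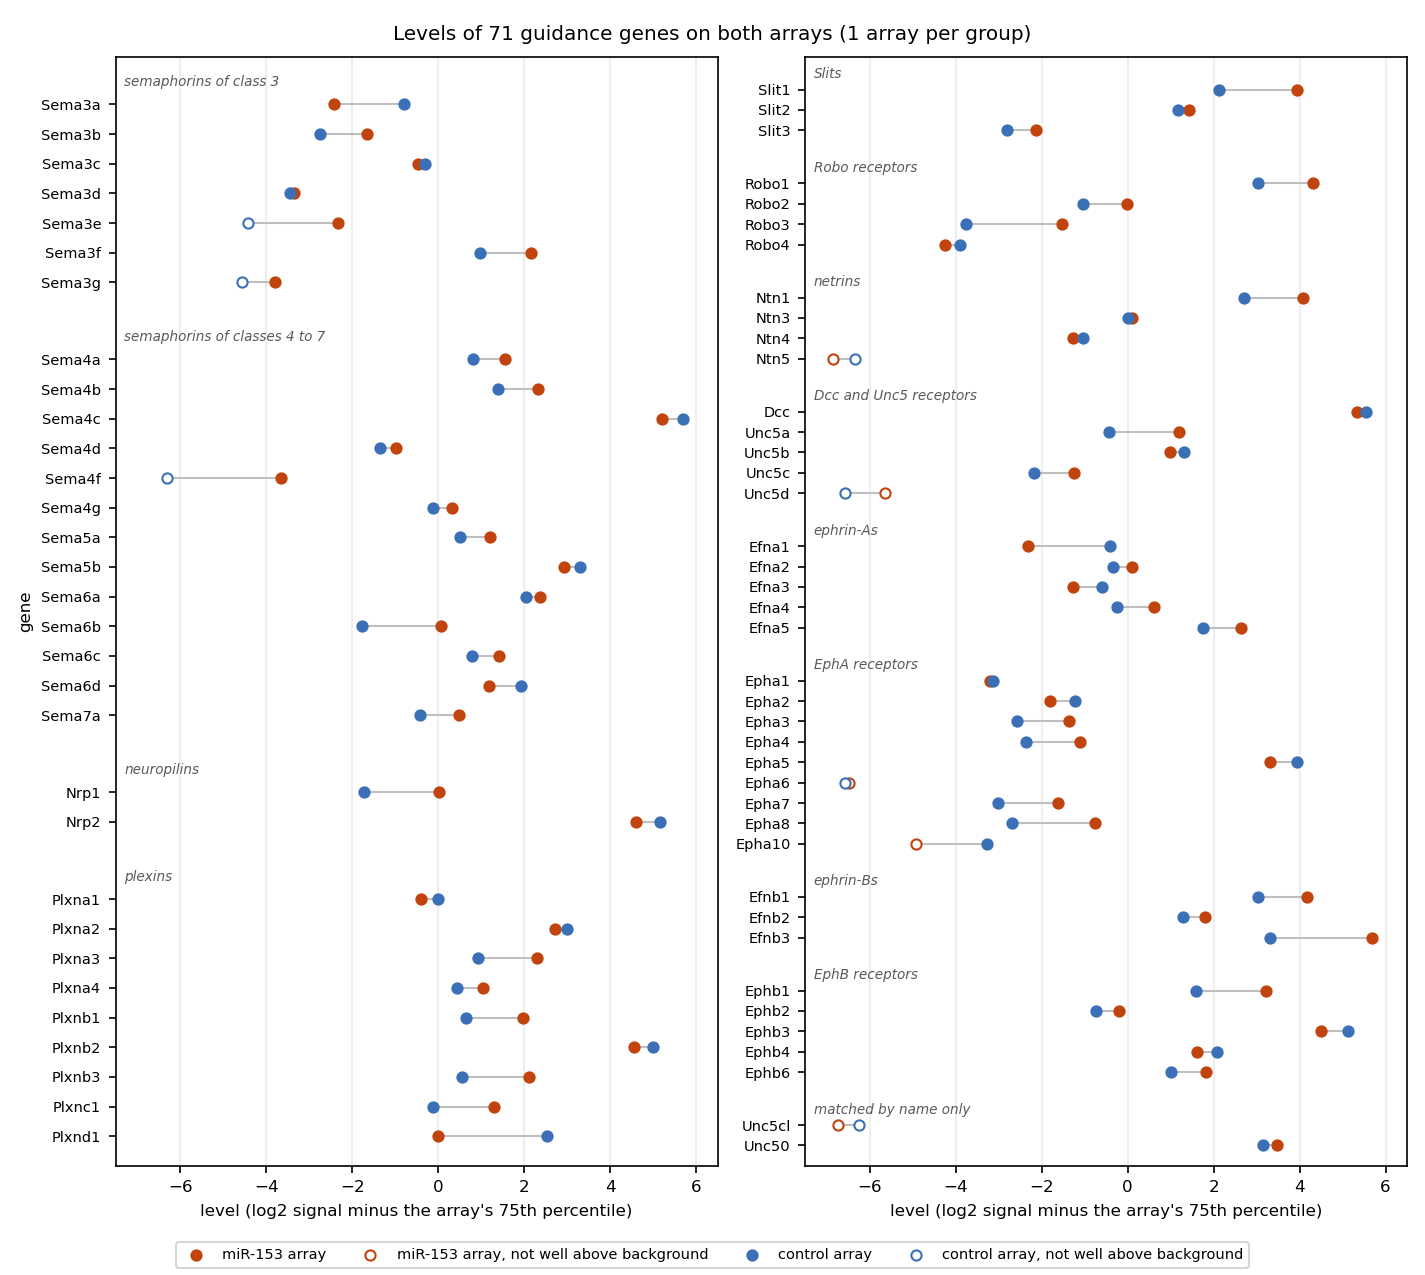
Levels of the 71 guidance genes, grouped by family, in miR-153 cells (orange) and the control array (blue), as log2 signal minus the array's 75th percentile; open points were not well above background and a grey line joins the points of a gene. Most orange points lie right of the blue point of their gene (42 of the 63 genes measured on both arrays), and the widest gap to the left is that of Plxnd1.

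At or above the median level of all genes, 12 of 35 guidance genes were at least 2-fold higher and 1 was lower, against 722 and 910 of 10239 genes overall. Below it, 9 of 28 were higher and 2 were lower, against 1166 and 1355 of 10238 overall. Receptors and ligands each had more members higher than lower: 14 of 31 measured receptors were at least 2-fold higher and 1 lower (median difference 0.82), and 7 of 31 measured ligands were higher and 2 lower (median 0.50). By attachment, 17 of 45 membrane-spanning proteins were higher and 1 lower, 4 of 11 secreted proteins were higher and 1 lower, and of the 6 proteins held by a lipid (GPI) anchor none was higher and 1 was lower.

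The files hold technical errors only. The median SD of the difference between repeat spots of a probe was 0.07 over 259 probes, and the scanner software's own error model gave the 24 genes past 2-fold a standard error of 0.20 to 0.28. Between the probes of a gene the SD was larger, 0.46 across 3445 genes. None of these errors covers the spread between cultures.

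Markers of neurons and of the oligodendrocyte lineage were higher alongside the guidance genes. Of 10 neuronal markers 7 were at least 2-fold higher in miR-153 cells and none was lower (median difference 1.58), and their summed level, in multiples of the array's 75th percentile, was 162 in miR-153 cells against 56.4 in control cells. Of 10 oligodendrocyte lineage markers 5 were higher and 1 was lower (median 1.08, summed level 126 against 88.9). All 10 markers of neural progenitors, the labelled cell type, were well above background in both groups. Hes5, Prom1 and Sox1 were at least 2-fold higher and none was 2-fold lower, with a median of -0.00 and a summed level of 315 against 367. Short of 2-fold, Nes (-0.95), Notch1 (-0.74), Vim (-0.72), Pax6 (-0.69) and Slc1a3 (-0.15) were below 0, and Sox2 (0.29) and Msi1 (0.15) above it. Astrocyte markers had a median of 0.43, with S100b the one of 10 that was higher and a summed level of 536 against 471. Most of this sum was Fabp7 (difference 0.19), and most of the progenitor sum was Vim (-0.72). Slc1a3 is in both of these lists, so their sums are not separate measures of astrocytes and progenitors. In RNA from whole cultures, fewer cells of a type and less RNA per cell cannot be told apart.

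Of 8 mesenchymal and perivascular markers 7 had a probe and 6 were measured in both groups. At least 2-fold higher were 4 of these (Pdgfrb, Dcn, Col1a1 and Lum) and none was lower, with a median of 1.10, Rgs5 not well above background in either group and a summed level of 8.44 in miR-153 cells against 4.31 in control cells. Of 8 endothelial markers Cdh5, Tek, Tie1 and Cldn5 were not well above background in either group, and the list's summed level was 10.68 in miR-153 cells against 17.4 in control cells. Most of that sum was Kdr, with 5695 intensity units in miR-153 cells and 7217 in control cells (difference -0.68). Flt1 differed by -2.32 and Pecam1 by -0.26. Vwf was well above background in miR-153 cells only, and its bound of 1.37-fold higher equalled its own difference. Among 8 markers of microglia and blood cells, Ptprc, Aif1, Cx3cr1, Hba-a1, Hbb-bt and Laptm5 were not well above background in either group, and the sum was 40.1 in miR-153 cells against 24.8 in control cells. Most of it was Itgam, with 21210.1 intensity units in miR-153 cells and 10111 in control cells (difference 0.73), and Csf1r differed by -0.09. Among 8 pluripotency markers Esrrb, Klf4 and Dppa5a were lower and none was higher, Zfp42 was not well above background in either group, and the sum was 4.48 against 9.14. The part of any of these cell types in the guidance gene differences was not tested.

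**Figure D2:**
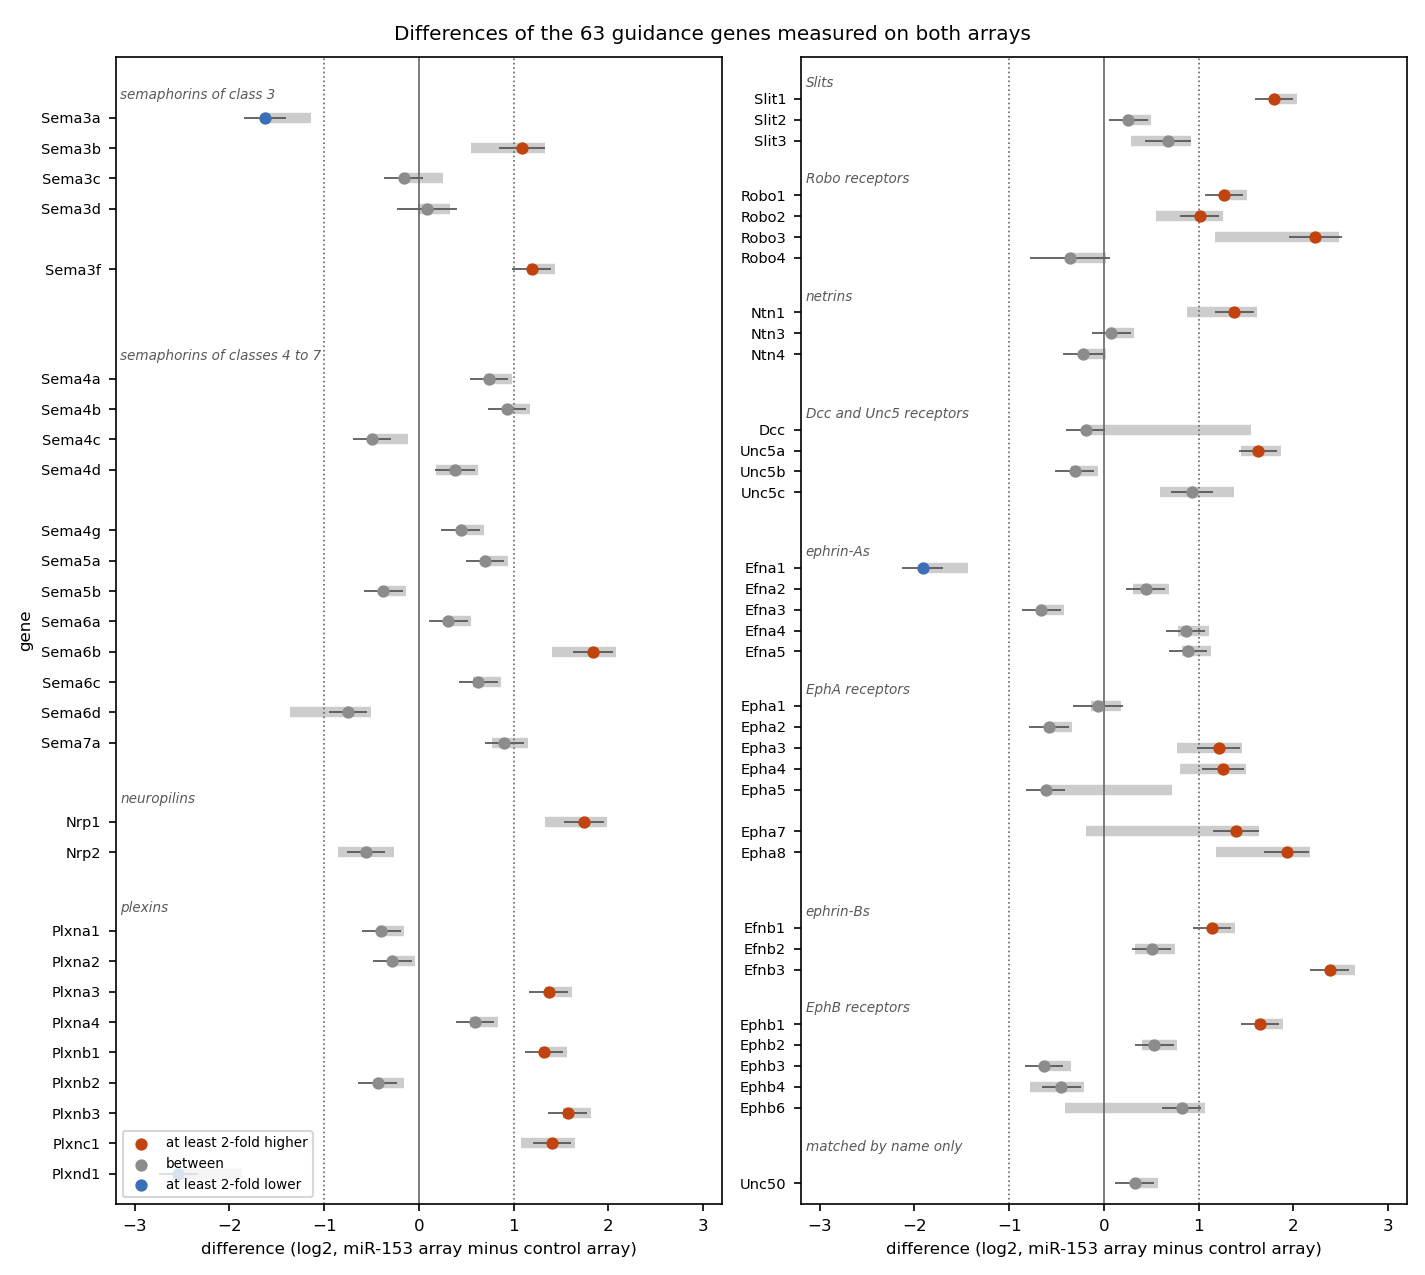
Log2 difference (miR-153 minus control) of the 63 guidance genes measured on both arrays, by family; whiskers are the scanner software's standard error, grey bands span the values under other processings, and dotted lines mark 2-fold. In all, 21 genes lie right of the right-hand dotted line and 3 (Plxnd1, Efna1 and Sema3a) left of the other.

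Ephrins with a membrane-spanning tail, the B class, were all above 0, with 2 of 3 past 2-fold. Efnb3, which encodes a midline barrier ligand for Eph receptors, gave 28369 intensity units in miR-153 cells and 4308 in control cells, at chr11:69367911-69367970 on mm9. That was 5.22-fold higher in miR-153 cells (difference 2.38), and no other guidance gene measured on both arrays had a larger difference above 0. Efnb1, an X-linked ligand that shapes cell sorting, gave 9929 in miR-153 cells and 3565 in control cells and was 2.21-fold higher. Efnb2, a ligand of nerve and vessel patterning, gave 1916 against 1071, a difference of 0.50 that did not pass 2-fold.

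In the A class of ephrins, held by a lipid anchor, the one gene past 2-fold was lower. Efna1, first known as a gene induced by tumour necrosis factor in blood vessel cells, gave 109.9 in miR-153 cells and 328 in control cells and was 3.77-fold lower (difference -1.91, chr3:89075703-89075762). The other 4 lay between, with differences of 0.89 for Efna5, 0.86 for Efna4, 0.44 for Efna2 and -0.66 for Efna3. Efna1, Efna3 and Efna4 are neighbours on chromosome 3, their probes lying within 62.5 kb of each other on mm9. These neighbours did not move together: Efna1 was past 2-fold on the lower side and Efna4 was above 0.

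EphA receptors, which mostly bind ephrin-As, had 4 of 7 measured members at least 2-fold higher and none lower, with a median difference of 1.21. Epha8 gave 324 in miR-153 cells and 67.4 in control cells (3.81-fold, chr4:136485335-136485394 on mm9), and its promoter window is one of those printed above. Epha4, which binds both classes of ephrin, gave 253 in miR-153 cells and 84.0 in control cells (2.39-fold). Epha3, the gene of the other window, gave 215 in miR-153 cells and 73.5 in control cells (2.31-fold). All these probes were dim in control cells, and with normexp background correction, which adds an offset and so shrinks the differences of dim probes, Epha4 had a difference of 0.80 and Epha3 of 0.77, both short of 2-fold, while Epha8 stayed past it at 1.18.

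Epha7 depended on its probe and on the background correction. Its brightest probe gave 179.7 in miR-153 cells and 54.1 in control cells, 2.63-fold higher, but the next probe gave 91.2 and 82.7, a difference of -0.19. With normexp the brightest probe gave 0.70, short of 2-fold. The remaining probe was well above background in miR-153 cells only and was at least 2.33-fold higher. Epha10, whose kinase domain is catalytically inactive, was the one receptor well above background in control cells only. It gave 18.2 in miR-153 cells and 45.1 in control cells. Its bound, 3.12-fold lower, equalled its own difference and so is an estimate from a dim probe. Of all 721 genes seen only in control cells, 73.6% had a bound of at least 2-fold. Epha1 (-0.06), Epha2 (-0.58) and Epha5 (-0.61) lay between, and Epha6 was not well above background in either group.

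Among the EphB receptors, which mostly bind ephrin-Bs, Ephb1 alone passed 2-fold. Ephb1, known for turning some retinal axons away from the midline, gave 5159 in miR-153 cells and 1304 in control cells and was 3.14-fold higher. The other 4 had differences of 0.82 for Ephb6, which lacks kinase activity, 0.53 for Ephb2, -0.45 for Ephb4 and -0.63 for Ephb3. Over ephrins and Eph receptors together, 7 of 20 measured genes were at least 2-fold higher and 1 lower, with a median of 0.68.

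On the brightest probes, Slits and Robo receptors had the highest median of the 4 ligand and receptor systems, 1.01 over 7 genes. Of these, 4 were at least 2-fold higher and none was lower. That median was the difference of Robo2, which was 0.55 on its second probe. With Dcc read from the gene's own chromosome, netrins and their receptors had a median of 0.93, so the order depended on the probes. Slit1, a secreted repellent made in the nervous system, gave 8371 in miR-153 cells and 1909 in control cells, 3.47-fold higher. Slit3 gave 125 in miR-153 cells and 62.0 in control cells (difference 0.68), and Slit2 gave 1475 against 977 (0.26). The ligands were thus all above 0, and only Slit1 was past 2-fold.

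Of the 4 Robo receptors 3 were at least 2-fold higher. Robo3, the divergent Robo that lets commissural axons reach the midline, gave 189.7 in miR-153 cells and 32.0 in control cells (4.70-fold, difference 2.23); under normexp background correction that difference was 1.18. Robo1, a main Slit receptor of forebrain axons, gave 10841 in miR-153 cells and 3569 in control cells (2.41-fold). Robo2, its close relative, gave 541 in miR-153 cells and 213 in control cells, 2.01-fold higher and just inside the rule. Robo2 was short of 2-fold on its second probe (difference 0.55), on the mean of its probes (0.78), with normexp (0.74) and with lowess (0.99).

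Robo4, the Robo of blood vessels, was dim on both arrays, with 28.7 in miR-153 cells and 29.1 in control cells (difference -0.36). The probes of Robo4 and Robo3 lie 2.81 kb apart on chromosome 9, and the difference of Robo3 was 2.23. Elsewhere on chromosome 9 the probes of Sema3b and Sema3f lie 83.1 kb apart, and both genes were at least 2-fold higher.

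Class 3 semaphorins, the secreted ligands that signal through neuropilins and plexins, went both ways, with 2 of 5 measured members higher, 1 lower and a median difference of 0.08. Sema3f, a repellent that acts through Nrp2, gave 2457 in miR-153 cells and 853 in control cells (2.28-fold). Sema3b, another secreted semaphorin, gave 173.5 in miR-153 cells and 64.7 in control cells (2.13-fold), or a difference of 0.55 with normexp. Both ligands were thus higher in miR-153 cells, and the call of Sema3b depended on the background correction.

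Sema3a, the founding axon repellent, which acts through Nrp1, went the other way. It gave 102 in miR-153 cells and 250.3 in control cells, 3.08-fold lower (difference -1.62, chr5:13602462-13602521 on mm9). Its second probe was well above background in control cells only, with 18.6 in miR-153 cells and 59.7 in control cells. By its own difference, which is an estimate and not a lower bound, that probe was 4.05-fold lower. Both probes of Sema3a were therefore lower in miR-153 cells.

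Sema3e, a class 3 semaphorin that binds Plxnd1 directly, was well above background in miR-153 cells only, at 109 against 20.3 in control cells, and was at least 4.01-fold higher. Sema3g (39.3 against 18.3, at least 1.45-fold) and the membrane-bound Sema4f (43.6 against 5.53, at least 1.61-fold) were also seen only in miR-153 cells. Of all 1932 genes seen only on that array, 19% had a bound of at least 2-fold, as did 1 of these 3. Sema3c (-0.16) and Sema3d (0.08) lay close to 0.

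Neuropilins split. Nrp1, the co-receptor for Sema3a and for vascular endothelial growth factor, gave 556 in miR-153 cells and 132 in control cells and was 3.34-fold higher (difference 1.74, chr8:131026650-131026709). Nrp2, the co-receptor for Sema3f, gave 13301 in miR-153 cells and 15515 in control cells (-0.56), and its second probe gave -0.85. With lowess, a scaling by level, the brightest probe gave -0.26. Across the array, probes at a level of 3 or more without a simple repeat had a median of -0.30. Within each ligand and receptor pair the partners differed in sign: Sema3a was lower with Nrp1 higher, and Sema3f was higher with Nrp2 below 0 but short of 2-fold.

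Plexins, the signalling receptors of semaphorins, were all measured, and 4 of 9 were at least 2-fold higher and 1 lower. Plxnb3, a receptor for Sema5a, gave 2383 in miR-153 cells and 635 in control cells (2.97-fold). Plxnc1, the receptor for Sema7a, gave 1345 in miR-153 cells and 402 in control cells (2.65-fold), and its second probe gave a difference of 1.08. Both receptors were higher in miR-153 cells, while their ligands Sema5a (0.70) and Sema7a (0.90) were above 0 without passing 2-fold.

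Plxna3, a partner of neuropilins in class 3 signalling, gave 2719.7 in miR-153 cells and 833 in control cells (2.59-fold). Plxnb1, the receptor for Sema4d, gave 2159.7 in miR-153 cells and 684 in control cells (difference 1.32). Sema4d itself differed by 0.38. The remaining plexins lay between, at 0.59 for Plxna4, -0.28 for Plxna2, -0.40 for Plxna1 and -0.43 for Plxnb2.

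Plxnd1, the receptor for Sema3e and one of vascular patterning, had the largest difference below 0 of the guidance genes measured on both arrays. It gave 551 in miR-153 cells and 2539.8 in control cells, 5.82-fold lower (difference -2.54, chr6:115904829-115904888). The second probe, at 57.9 in miR-153 cells and 168 in control cells, gave -1.87. The ligand Sema3e was at least 4.01-fold higher in miR-153 cells, and the endothelial markers Kdr, Flt1 and Pecam1 had differences of -0.68, -2.32 and -0.26. Pecam1 was dim, at 44.6 in miR-153 cells and 39.7 in control cells, and its difference was smaller than its standard error of 0.33. Vwf was seen in miR-153 cells only, and Cdh5, Tek, Tie1 and Cldn5 were not well above background in either group.

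Semaphorins of classes 4 to 7, which are bound to the membrane, were mostly above 0 but short of the rule. Of 12 measured, 9 were above 0, Sema6b was at least 2-fold higher and none was lower, with a median difference of 0.53. Sema6b, a ligand for A-type plexins, gave 573 in miR-153 cells and 127 in control cells (3.58-fold). Closest below 2-fold were Sema4b (0.93), the lipid-anchored Sema7a (0.90) and Sema4a (0.74), followed by Sema5a, Sema6c (0.63), Sema4g (0.44), Sema4d and Sema6a (0.31). The 3 members below 0 were Sema6d (-0.75), Sema4c (-0.50) and Sema5b (-0.38).

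Netrins and their receptors had 2 of 7 measured genes at least 2-fold higher, none lower and a median of 0.08. With Dcc read from its probe on the gene's own chromosome, described below, these were 3 of 7 and a median of 0.93. Ntn1, the midline attractant, gave 9333 in miR-153 cells and 2847 in control cells (2.60-fold), and its second probe gave 0.87. Ntn3 (0.08) and Ntn4, a laminin-related netrin of basement membranes (-0.22), were near 0, and Ntn5 was not well above background in either group.

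Unc5a, a repulsive netrin receptor, gave 1263 in miR-153 cells and 324 in control cells (3.09-fold). Unc5c, another, gave 233 in miR-153 cells and 97.0 in control cells (difference 0.93), just short of 2-fold, and its second probe gave 1.38. Unc5b, which is also an endothelial gene, differed by -0.31, and Unc5d was not well above background in either group. Of the genes matched by name only, Unc50 differed by 0.32 and Unc5cl was not well above background in either group.

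The value of Dcc, the attractive netrin receptor, depended on its probe. The brightest of its 3 probes gave 22352 in miR-153 cells and 20239 in control cells, a difference of -0.19, but the file places it on chromosome 7 of mm9 and not on chromosome 18 with the gene. It was the one of 93 guidance probes that lay off its gene's chromosome, and it held a run of 17 GAA units over 51 of its 60 bases. Probes of other names that shared at least 16 bases with it numbered 50.

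Both Dcc probes on chromosome 18 were higher in miR-153 cells. The brighter of them gave 275 in miR-153 cells and 74.6 in control cells, a difference of 1.55. The other was well above background in miR-153 cells only, at 63.8 against 9.22, and was at least 2.35-fold higher. Read from the brighter of these, chosen after the data were seen, Dcc would count among the higher genes, 22 of 63 in place of 21.

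Simple repeats were also found in the brightest probes of Ephb3 (32 bases), Sema4c (22), Epha5 (20) and Sema6d (20), and 75 to 78 probes of other names shared at least 16 bases with each. With Dcc, all 5 such genes were below 0, against 16 of the other 58 measured guidance genes. Across the whole array the 182 measured probes with a repeat of 20 bases or more had a median difference of -0.27, with 68.7% below 0, against -0.11 and 56.5% for the other 27264 probes. At a level of 3 or more these figures were -0.33 and 76.4% for 127 repeat probes, against -0.30 and 68.0% for 4706 others. The next probe of Epha5 gave 0.72 in place of -0.61, while that of Sema6d gave -1.36 in place of -0.75. Ephb3 and Sema4c had 1 probe each. Without such a repeat, the brightest probes of Slit1 (2), Ntn1 (2), Sema3a (1) and Sema3g (1) shared at least 16 bases with that many probes of other names.

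**Figure D3:**
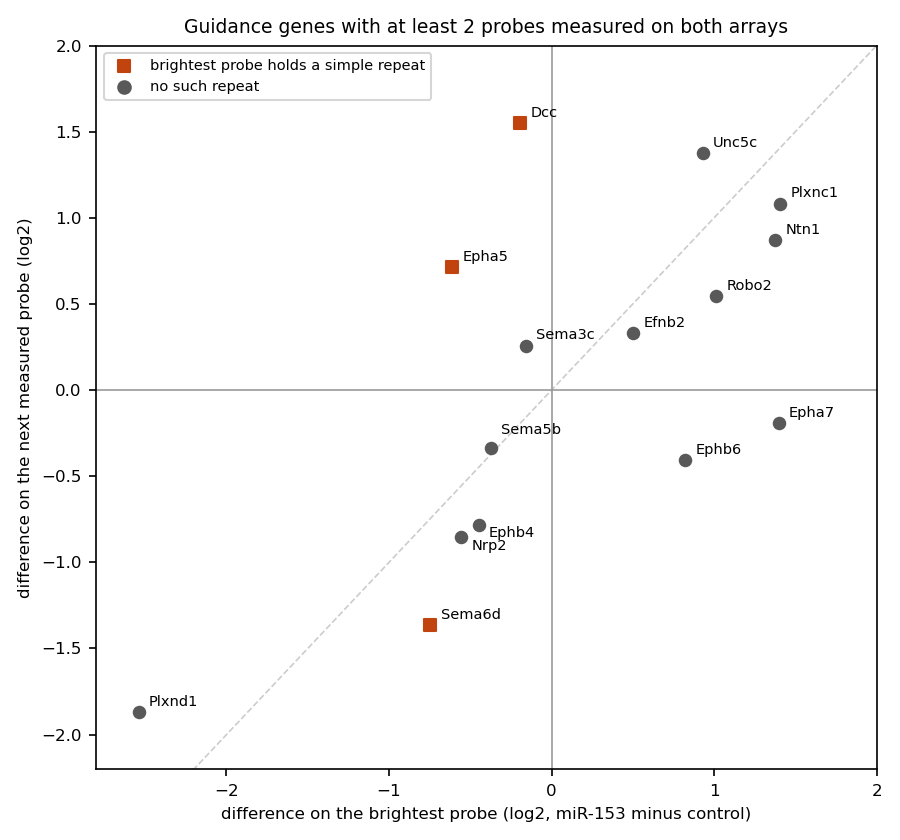
Log2 difference (miR-153 minus control) on the next brightest measured probe against that on the brightest, for the 15 guidance genes with at least 2 probes measured on both arrays; squares mark genes whose brightest probe holds a simple repeat. Points off the diagonal disagree: 5 of the 15 genes lie upper left or lower right of the zero lines, where the probes differ in sign.

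More generally, 51 guidance genes had 1 probe and 20 had several. Of 15 with at least 2 probes measured on both arrays, 10 had the same sign on the brightest pair, and the median gap was 0.46. The other 5, with opposite signs, were Dcc, Epha5, Epha7, Ephb6 and Sema3c. Among the 5 genes past 2-fold that had a second measured probe, Plxnd1, Plxnc1, Ntn1 and Robo2 kept their sign and Epha7 did not.

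Other cues and receptors of guidance were also more often higher than lower in miR-153 cells, from a list of 35 genes. Among the 32 with a measurement in both groups 11 passed 2-fold on the higher side and none on the lower, with a median difference of 0.65. Over all genes measured on both arrays, 9.22% were that much higher and 11.1% that much lower. Celsr3, an atypical cadherin needed for axon tracts, gave 5912 in miR-153 cells and 830.1 in control cells (5.64-fold), and Lrrc4, a synaptic partner of netrin-G proteins, gave 1918 against 285 (5.33-fold). The chemokine gene Cxcl12 (difference 1.77), the axonal adhesion gene Nfasc (1.65), Islr2 (1.58), a membrane protein of axon extension, and Dscam (1.45), an adhesion receptor that also binds netrin, followed. Cntn4, an axonal contactin, was well above background in control cells only and was at least 2.96-fold lower.

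Intracellular effectors, the proteins that carry guidance signals to the cytoskeleton, had a smaller median difference than the guidance genes. Of 55 listed, 53 had a measurement in both groups. Among these, 12 passed 2-fold on the higher side and 2 on the lower, with a median of 0.22, against 9.22% and 11.1% of all genes. Rnd3, an atypical small GTPase that lacks GTP hydrolysis, gave 10039 in miR-153 cells and 1049.8 in control cells (7.58-fold), and Rnd2, its relative, gave 4362 against 809 (4.27-fold). Pak3, a kinase downstream of Rac and Cdc42 (2.45), Dpysl4, of the collapsin response mediator family (2.28), Cdk5r1, the activator of Cdk5 in neurons (2.05), and Chn1, a Rac inhibitor downstream of Epha4 (1.74), were also higher. Lower were Dock1, a Rac activator in netrin signalling (-1.76), and Vav3, an exchange factor downstream of Eph receptors (-1.18). Mical2, an actin oxidising enzyme, was seen in control cells only. It was 5.84-fold lower by its own difference, which is an estimate and not a lower bound.

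**Figure D4:**
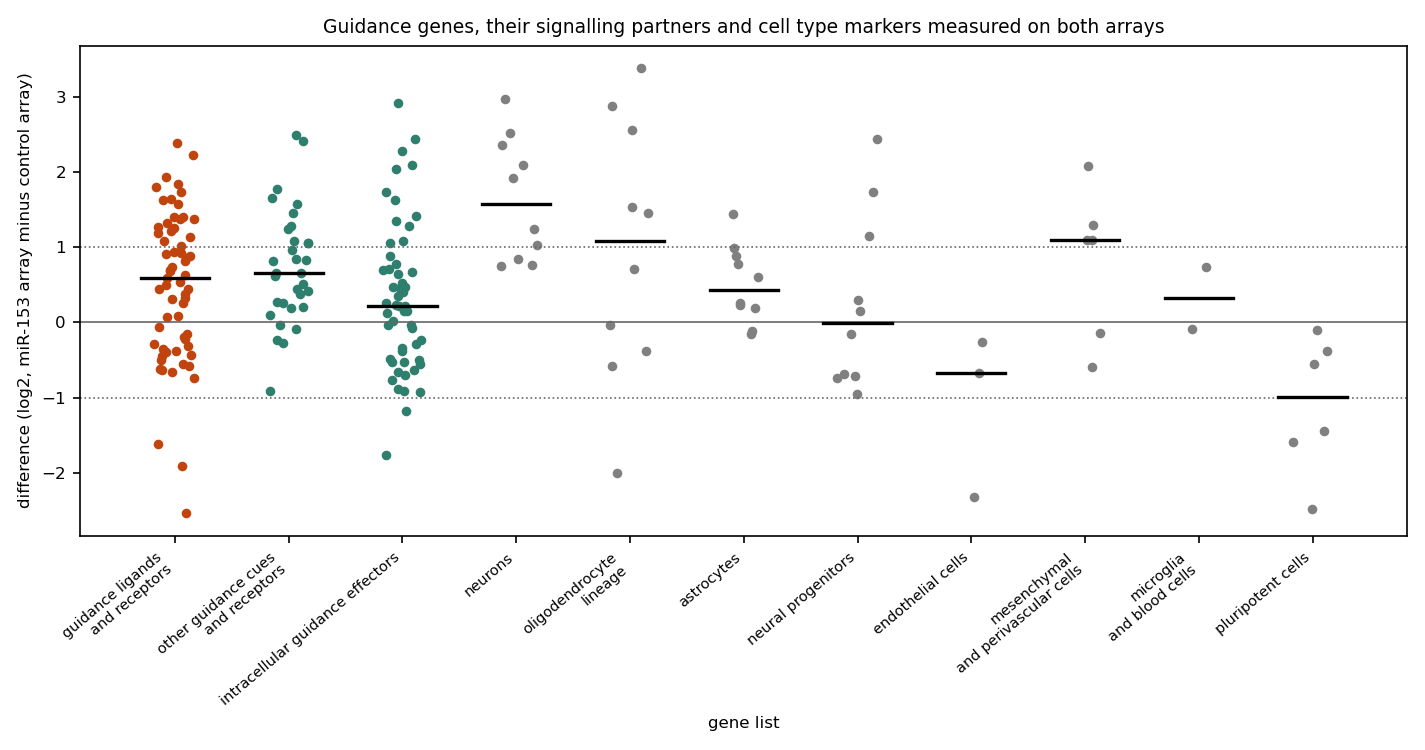
Log2 difference (miR-153 minus control) of every gene measured on both arrays in each list, with the list's median as a black bar and dotted lines at 2-fold: guidance ligands and receptors in orange, their partners in green, cell type markers in grey. Medians are 0.59 for the guidance genes, 0.65 for other cues and receptors, 0.22 for intracellular effectors and 1.58 for neuronal markers.

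Each scaling tried kept more guidance genes past 2-fold on the higher than on the lower side. Scaling on spike-in RNA added 0.24 to every difference and moved the median of all genes to 0.14, with 27 guidance genes higher and 3 lower, while over all genes it gave 2842 higher and 1535 lower in place of 1888 and 2265. Relative to that median the guidance genes differed by as much as before. Signs turned in at least 1 of 5 scaling and background settings for 6 genes close to 0: Dcc, Epha1, Ntn4, Robo4, Sema3c and Sema3d.

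**Figure D5:**
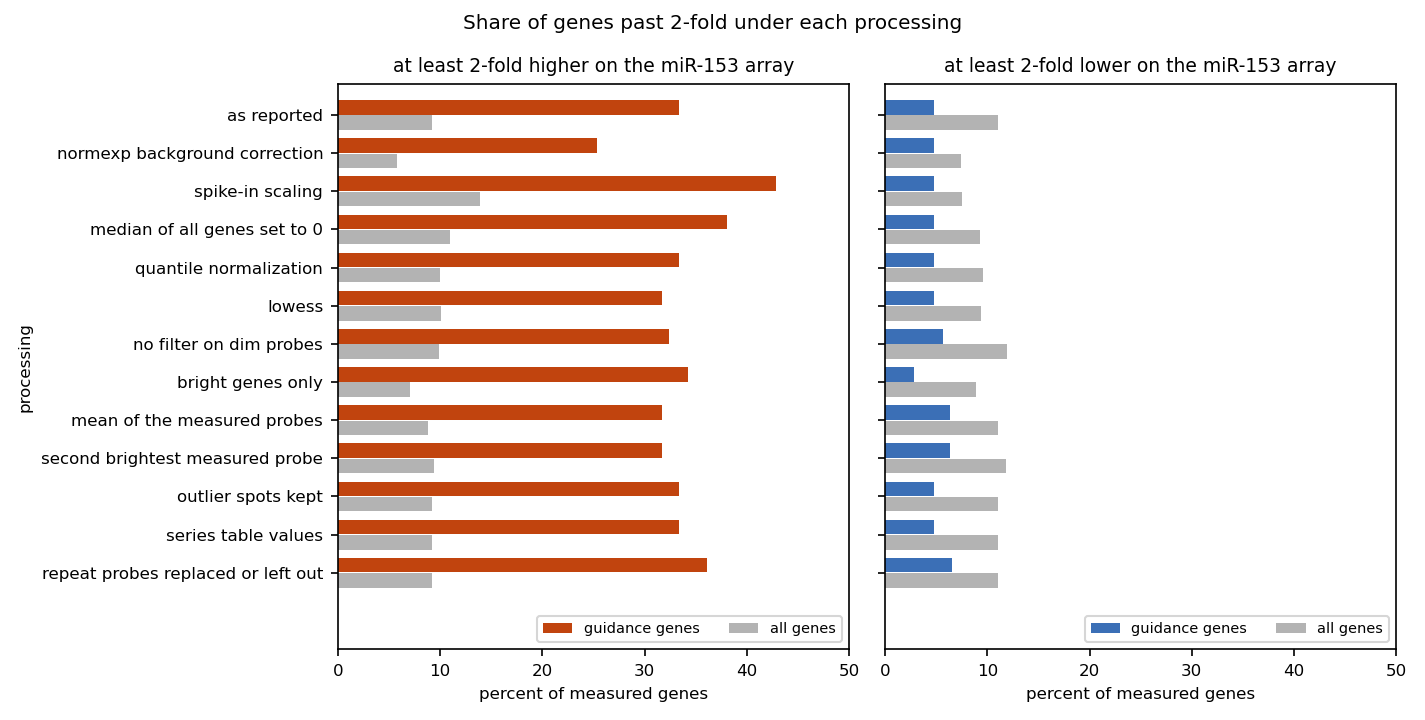
Share of measured genes at least 2-fold higher (left) and at least 2-fold lower (right) in miR-153 cells, in percent, under each processing; orange and blue bars are guidance genes and grey bars all genes. The orange bar is longer than the grey one beside it throughout, from 25.4% against 5.84% with normexp to 42.9% against 13.9% with spike-in scaling.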

How the data were processed

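The authors deposited scanner intensities of 2 one-colour Agilent arrays on the same slide. The submitters' processing notes name Agilent Feature Extraction, version 10.7.3.1. Its processed signal has the background subtracted and comes with outlier, saturation and background flags for every spot, per the file headers. The 229 spots flagged as outliers on at least 1 array were dropped, and repeat spots were averaged. Values are log2 of the deposited processed signal minus the array's 75th percentile over non-control spots. Accessions were matched without versions to RefSeq for 26296 probes (47.2%), and other probes kept the file's name. The probe with the highest mean level over both arrays stood for its gene. Probe positions are those of the files, on mm9. Well above background were 32969 (55.6%) of 59305 non-control spots in miR-153 cells and 31132 (52.5%) in control cells, and no spot was saturated.

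Genes well above background on both arrays were counted as higher or lower at 2-fold, which is a size threshold without a test. For a gene well above background on 1 array, the bound compares its level with the lowest level well above background on the other array, or with its own level there if that is higher. In the latter case the bound equals the gene's own difference and is an estimate, not a lower limit. Repeats were read from the files' probe sequences. The genes, the 10 further gene lists and the rules were chosen with earlier results of these data known, so no count is independent support for another. Genes named outside the name rule come from the 2 pathway lists, when at least 2-fold apart, and from the 8 marker lists. Endothelial markers named beside Plxnd1, and markers named beside their list's count, were chosen after their values were seen; some genes are not reported here. Alternatives comprised background correction by normexp with an offset of 50 (limma 3.58.1, run in R 4.3.3), 4 other scalings, 2 filters, 2 rules for the probe, outlier spots kept, the authors' series table, and other fold rules. That table's intensity values equal the deposited signal divided by 485 on the miR-153 array and 381 on the control array, so they are linear and not centred. Counting was tested on simulated data, the control array with known changes and noise added and the same background flags in both groups. That checks the code only and says nothing of the spread between probes or cultures. Python 3.11.15 with numpy 2.4.6 and pandas 2.3.3 was used.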

Additional observations from a re-analysis of the deposited data

How the results depend on the processing

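No paired analysis was possible because each group had 1 array, and for the same reason no array could be left out. Of 24 guidance genes past 2-fold, 18 stayed past it in each of 11 other settings that gave them a value. The exceptions were Epha3, Epha4, Epha7, Sema3b, Ntn1 and Robo2. Several settings could not move a call, because the filters and the series table leave a gene's own difference as it was. Spike-in and median scaling added 0.24 and 0.11 to every difference, so they could not take a gene off the higher side. The 2 rules for the probe could act on only the 5 of these genes with a second measured probe. Normexp left 16 higher and 3 lower, with a median difference of 0.50. The median was 0.84 with spike-in scaling, 0.70 with the median of all genes at 0 and, in an alternative chosen after seeing the data, 0.70 with repeat probes replaced or left out. Among bright genes alone the counts were 12 higher and 1 lower, of 35. At a 1.5-fold rule, 32 were higher and 7 lower (18.6% and 24.6% of all genes), and at 3-fold 8 and 3 (3.15% and 4.29%). Epha7 turned to -0.19 on its second probe; the cause was not tested. With 1 array per group, none of these settings bears on the spread between cultures.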
